A study of Mus musculus with 12 samples.

Results

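The baseline transcriptome of the whole proximal small intestine was described from the control mice of the series. The members are the samples whose title holds both P6 and control, which are 6 of the 12 samples, and every one of the 18090 rows of the deposited value table was ranked by its mean over these 6 mice. The other 6 samples came from mutants described as villinCre;Shp2fl and enter no comparison here. The controls are of a mixed C57/BL6;129Ola strain, and their labels call them biological replicates, so n is the number of mice. RNA was taken from an entire segment of proximal small intestine, which holds epithelium, muscle, stroma, vessels, nerves, blood and immune cells together. What P6 abbreviates, the sex of the mice, any treatment, and whether the controls carry the floxed allele or the Cre are not stated by the labels. Ptpn11, the gene of Shp2, read between 1129.0 and 1480.5 in the 6 controls.

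The small intestine of a suckling mammal digests milk. Its absorptive cells take up fatty acids, rebuild triglyceride from them and export it with apolipoproteins as chylomicrons, and in rodents they also take up whole proteins by endocytosis, some of which they break down in lysosomes while maternal antibody is carried across by a dedicated Fc receptor. Enzymes for a solid diet, such as sucrase, mature Paneth cells in the crypts and most lymphocytes of the gut wall appear or increase around weaning.

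Values are array intensities on a linear scale after background subtraction, so that a row without signal scatters around 0. The size of the most negative value in the table, 27.8, served as the noise limit, and 8148 of 18090 rows (45.0%) had a mean at or under it. Such a row gives only an upper bound on what its probe saw. Ranks are ranks of array signal and not of transcript number, because probes differ in how well they bind, so a difference in level or rank between 2 genes is not a difference in transcript number. Each gene is given by its mean ± SD over the 6 mice, and where 3 values stand before the mean they are the lowest, the median and the highest mouse. Distributions were almost alike in the 6 mice. Their medians lay between 42.2 and 43.4, all shared a highest value of 40554.2, and Pearson's r between mice ran from 0.973 to 0.991. That shared distribution also limits how far the highest rows can differ between mice. In a whole segment of gut, fewer cells of a type and less RNA per cell cannot be told apart.

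Some mice stood apart in part of the rows. Control 4, and less so control 5, had high values of genes known from pancreatic acinar cells. Summed over the acinar list without Zg16, the intensity was 131026 in control 4, 19862.1 in control 5 and between 3596.6 and 6068.3 in the other 4 mice. Without control 4 the lowest r between mice was 0.982. Control 1 had the lowest values of many stromal, vascular and muscle genes and the highest of several Paneth, T and B cell genes. It was also lowest in 9 of 18 absorptive enterocyte rows with every mouse above the limit, compared with 25.5% of all such rows. Controls 5 and 6 stood apart from the other 4 in a further set of rows, sex-linked genes among them, given under other observations. Results that rest on these mice are given with those values beside them.

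Much of the signal lay in the top 5% of rows. The 10 highest rows held 3.1% of the summed intensity, the 100 highest 17.2% and the 904 rows of the top 5% held 56.9%. The median of the row means was 43.2, 2606 rows exceeded 1000 and 180 exceeded 10000. The row at rank 100 had a mean of 13757.8 and the row at rank 904 a mean of 3053.6. All 6 mice were above the limit in 9023 rows, all were at or under it in 7230, and 1837 rows were mixed.

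**Figure D1:**
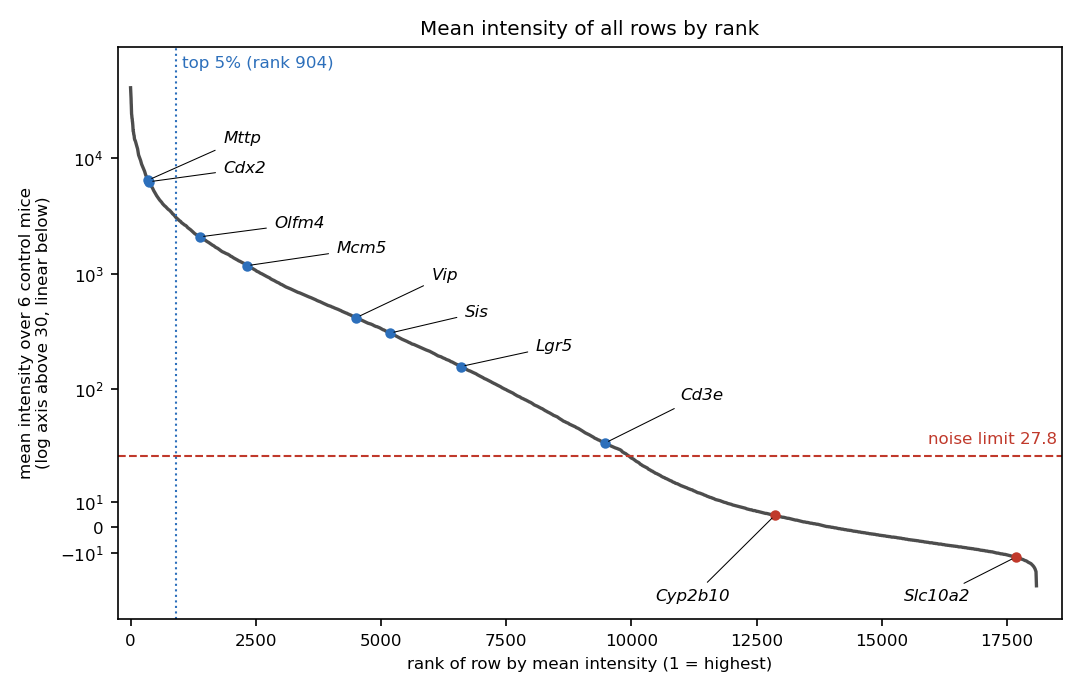
Mean intensity over the 6 control mice (vertical axis, logarithmic above 30 and linear below) against the rank of the row (horizontal axis, 1 = highest) for all 18090 rows. Blue points mark example genes above the noise limit of 27.8 (red dashed line), red points genes below it, and the blue dotted line is the end of the top 5%, at rank 904.

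The highest row of all was Fcgrt, the neonatal Fc receptor that carries maternal antibody across the suckling epithelium. It read 38448.7, 40554.2 and 40554.2, with a mean of 40039.7 ± 872.8 (SD, n = 6), and was the highest row in 4 of the 6 mice. In the other 2 mice, controls 2 and 6, the highest row was Apoc3, an apolipoprotein of chylomicrons. Among the rows next in rank were the ribosomal protein Rpl41 (mean 38064.5 ± 1244.8), the apolipoproteins Apoa1 and Apoa4, the ribosomal protein Rplp1 and the fatty acid activating enzyme Acsl5. Ranks 9 to 13 were held by Atp5g3 and Atp5b, subunits of the mitochondrial ATP synthase, the ubiquitin gene Ubb, the metal-binding metallothionein Mt1 and the ferritin heavy chain Fth1. Among the other 40 highest rows were Gpx3, a secreted glutathione peroxidase (27461.0 ± 2109.7), P4hb, which folds secreted proteins (26371.9 ± 2253.8), the actin-binding Tmsb4x (21610.0 ± 2325.7) and the translation factor Eef1a1 (21783.9 ± 912.0). The plot of mean against rank shows how steeply the curve falls after these rows.

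Sorted by function after their values were seen, the 100 highest rows held 18 genes of the respiratory chain and ATP synthesis and 15 of translation. A further 9 were epithelial surface proteins, secreted proteins and ion transporters, 8 served fat, ketone and vitamin A handling, 5 endocytosis and the lysosome, and 3 metal handling. Muscle and blood gave 3 rows, 32 fell in no such class, and 7 rows matched no gene in the reference table. Among the surface and secreted proteins were Prap1, a secreted acidic protein, with 24899.9 ± 2036.2, and Cdhr5, a cadherin that links microvilli, with 23411.5 ± 2671.7. Spink1, a trypsin inhibitor, had a mean of 22380.7 ± 2541.0 and Ms4a10, a membrane protein, one of 20329.5 ± 2911.5. Between mice the membership was stable, with 67 rows in the top 100 of all 6 mice and 87 to 93 rows of each mouse's own top 100 shared with the top 100 by mean. Several of the 40 highest rows bear names of pseudogenes or of unnamed loci, such as Ubb-ps and Gm9294, and whether their probes read a parent gene was not tested.

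Apoa1, Apoc3 and Apoa4 are direct neighbours on chromosome 9 in the RefSeq gene order of GRCm38.p6, and they held ranks 5, 2 and 6. The next gene of the same family, Apoa5, named after its value had been seen, lay under the limit, at -3.5. The promoters of the 3 highest fat-handling genes that the RefSeq table of GRCm38.p6 covers are shown because the fat genes lead the ranks, and that of Rbp2, the cellular retinol-binding protein of enterocytes, is added as an example that holds several motifs. Each run covers 250 bases before and 50 after the annotated start, 5′ to 3′ on the gene's strand, with motif matches in capitals. They lie at chr9:46228380-46228679 (Apoa1), chr9:46240594-46240893 (Apoa4), chr19:55253119-55253418 (Acsl5) and chr9:98490287-98490586 (Rbp2), all on the + strand.
Apoa1: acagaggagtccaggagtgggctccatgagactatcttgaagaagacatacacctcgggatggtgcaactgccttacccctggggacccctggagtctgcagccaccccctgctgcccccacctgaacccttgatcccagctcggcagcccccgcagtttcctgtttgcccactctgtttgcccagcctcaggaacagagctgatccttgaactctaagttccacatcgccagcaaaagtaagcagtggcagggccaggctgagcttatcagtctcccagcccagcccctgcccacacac
Apoa4: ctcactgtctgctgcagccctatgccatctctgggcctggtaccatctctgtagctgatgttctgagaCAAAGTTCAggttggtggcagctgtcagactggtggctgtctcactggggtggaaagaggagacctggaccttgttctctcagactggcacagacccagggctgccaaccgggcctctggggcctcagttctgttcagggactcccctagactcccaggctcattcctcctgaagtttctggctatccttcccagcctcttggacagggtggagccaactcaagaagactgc
Acsl5: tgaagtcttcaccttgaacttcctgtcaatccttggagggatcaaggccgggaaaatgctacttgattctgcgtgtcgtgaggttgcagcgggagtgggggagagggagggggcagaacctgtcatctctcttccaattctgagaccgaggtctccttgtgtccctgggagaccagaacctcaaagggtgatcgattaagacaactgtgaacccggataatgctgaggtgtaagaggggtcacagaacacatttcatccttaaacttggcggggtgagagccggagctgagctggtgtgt
Rbp2: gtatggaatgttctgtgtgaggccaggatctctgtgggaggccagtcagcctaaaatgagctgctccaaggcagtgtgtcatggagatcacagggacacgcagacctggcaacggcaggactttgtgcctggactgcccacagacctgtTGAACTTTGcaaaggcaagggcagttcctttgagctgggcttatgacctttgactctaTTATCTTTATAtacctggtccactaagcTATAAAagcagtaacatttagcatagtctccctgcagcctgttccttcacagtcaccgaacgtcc

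Both strands were searched for core letters of known sites, with TATAAA for TATA-binding protein, AGATAA for GATA factors, TTTATGG for caudal-type factors and CAAAGTCCA for HNF4, for the palindromic HNF1 motif, and for CAAAGTTCA, a variant of the HNF4 core that was added after the sequences had been read. Apoa1 and Acsl5 held none of these 6, and neither did the promoter of Fcgrt, which was also searched but is not printed. Apoa4 held CAAAGTTCA on the + strand from position -182, counted from the start. Rbp2 held TATAAA on the + strand from position -15 and on the - strand from -38, AGATAA on the - strand from -43, where it overlaps the TATAAA match by 1 base, and CAAAGTTCA on the - strand from -101. These matches are descriptions of letters and not of sites in use. TATAAA lay in 13.6% of all 32851 promoters of the table, in 10.7% of the 84 promoters of the 100 highest rows and in 17.4% of the 6922 promoters of genes at or under the limit. The 84 promoters cover 71 of the 93 genes matched to the 100 highest rows. CAAAGTTCA lay in 0.39% of all promoters, and the 2 of those 84 that hold it are the Apoa4 and Rbp2 promoters that prompted the search.

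Absorptive enterocytes, which line the villi, held high ranks with many of their markers. Of 20 measured markers 11 lay in the top 5% of rows, against 5.01% of the 16950 genes with a matched row, and 2 lay at or under the limit, against 44.5% of those genes. Villin 1, Vil1, the actin-bundling protein of microvilli, had a mean of 9100.7 ± 1121.1 and keratin 20, Krt20, 3318.0 ± 561.4, both named after their values had been seen. The 2 markers without signal were Fabp1 at -8.4 ± 3.7 and Fabp2 at -14.6 ± 5.7, fatty acid binding proteins known as abundant in enterocytes. All 6 mice were under the limit for both rows, which bounds what these 2 probes saw. The same held for 2 ribosomal proteins that every cell uses, Rpl6 at 0.2 ± 6.0 and Rplp2 at -2.4 ± 6.0, while 9 of the 16 measured cytosolic ribosomal proteins lay in the top 5%.

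Fat absorption held several of the highest rows. Of 23 measured genes for the uptake of milk fat and the assembly of chylomicrons, 11 lay in the top 5% and 3 at or under the limit, and the median member stood at the 94.3rd percentile of rank. Apoc3 read 38448.7, 39572.4 and 40554.2 (mean 39525.1 ± 942.3). Apoa1, a further apolipoprotein, read 34336.4, 36456.8 and 39572.4 (36698.3 ± 2053.2). Apoa4, made by enterocytes during fat absorption, read 34336.4, 36081.3 and 37125.0 (35819.5 ± 1032.6). The 3 apolipoproteins did not put the mice in one order, since Apoc3 was highest in controls 2 and 6, Apoa1 in control 5 and Apoa4 in control 6. Acsl5, which joins fatty acids to coenzyme A, read 32434.1, 35353.8 and 37125.0 (34845.8 ± 2002.9), lowest in controls 5 and 6. Among the genes that build and load triglyceride, named after their values had been seen, Dgat2 had a mean of 19365.7 ± 3248.2, Mttp, the transfer protein that fills the particle, 6384.3 ± 830.8, Mogat2 3802.6 ± 312.5 and Dgat1 1036.5 ± 221.6. Cd36, a fatty acid transporter, had a median of 1.9 over the 6 mice, a mean of 2.5, and joined Fabp1 and Fabp2 at or under the limit. Apob, the backbone of the chylomicron, was not analysed here.

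Endocytic uptake and lysosomal digestion made up a further high group. Besides Fcgrt, Amn, the membrane anchor of the cubilin receptor complex, read 9968.9, 13526.0 and 15072.0 (12972.5 ± 1888.8), lowest in control 1 and highest in control 6. Dab2, a clathrin adaptor for endocytic receptors, read 2313.8, 3077.6 and 4589.7 (3257.5 ± 792.9), and Pdzk1ip1, a membrane-associated protein, 1648.3, 2162.6 and 2614.5 (2168.7 ± 404.1). Both were highest in control 6. Lrp2, the megalin receptor, lay at -0.2 ± 3.9 and Prdm1, which in mice represses adult enterocyte genes before weaning, at 23.1 ± 7.4, so 3 of the 9 measured genes of this list were in the top 5% and 2 at or under the limit.

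Of 23 measured lysosomal genes 12 lay in the top 5%, 2 at or under the limit, and the median member stood at the 95.4th percentile. The protease Ctsb read 15808.0, 16622.4 and 18134.5 (16870.2 ± 890.2), and its 6 mice lay close together. Neu1, which removes sialic acid, read 10756.9, 14727.9 and 17204.3 (14282.0 ± 2504.0). Legumain, Lgmn, a protease that macrophages also express, read 9149.4, 12305.5 and 14712.4 (12159.6 ± 2010.4). Lamp1, a lysosomal membrane protein, read 9450.0, 11880.1 and 15713.1 (11991.2 ± 2184.9). No mouse was highest in more than 1 of these 4 genes. The lysosomal score, the mean log2 deviation of a mouse from the mean of 6 over the list, ran from -0.18 in control 4 to 0.13 in control 3. Gla, an alpha-galactosidase, had a mean of 22.5 ± 8.8 and the carboxypeptidase Scpep1 one of -0.5 ± 6.8.

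**Figure D2:**
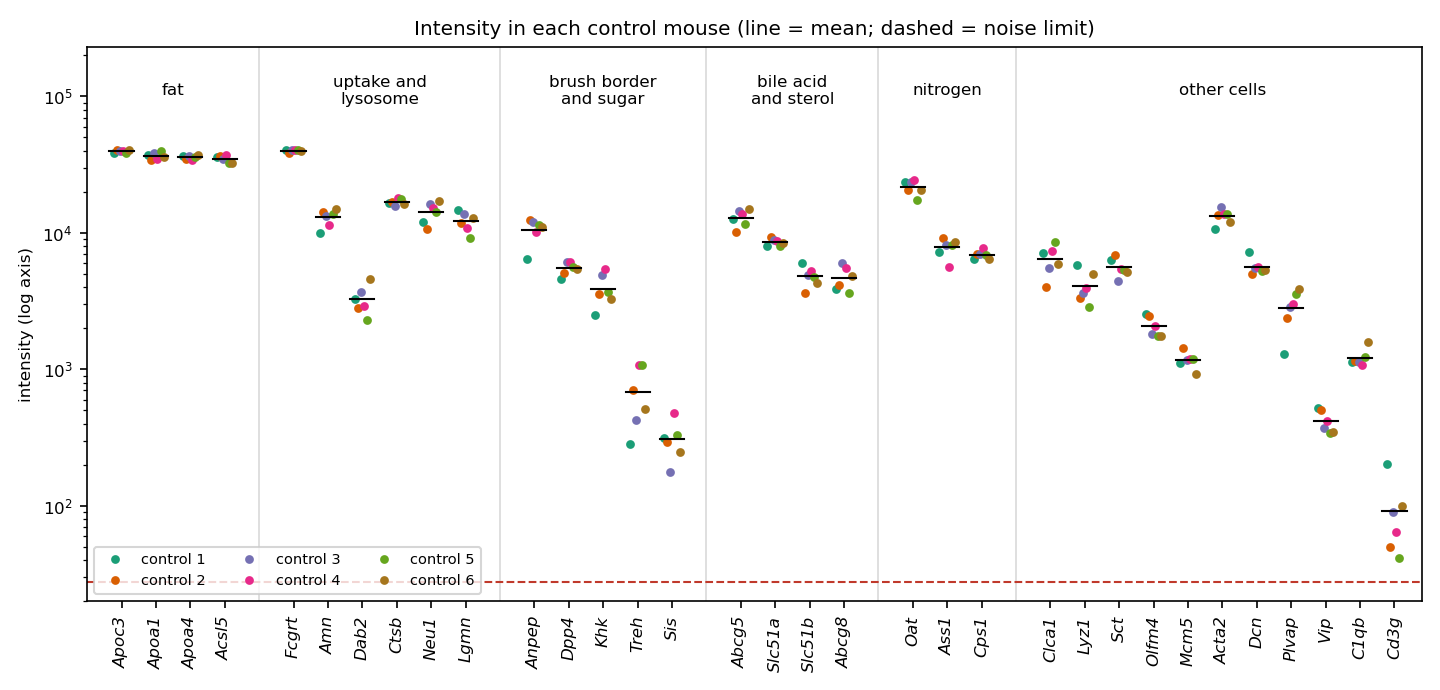
Intensity (vertical axis, logarithmic) of genes of the fat, uptake, brush border, sterol and nitrogen groups and of markers of other cell types in each of the 6 control mice (coloured points), with the mean (black line) and the noise limit of 27.8 (dashed). The 4 fat genes sit between 32434.1 and 40554.2, Treh and Sis vary more between mice, and Plvap is lowest in control 1.

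Carbohydrate digestion was read from few rows. Lactase, Lct, and Mgam were not analysed here. Trehalase, Treh, which splits trehalose, read 283.4, 606.4 and 1083.9 (682.0 ± 339.5), and sucrase-isomaltase, Sis, the sucrose-splitting enzyme of the weaned gut, read 176.3, 301.9 and 477.6 (306.1 ± 100.7) in a row that carries an older clone name. Both were highest in control 4 and above the limit in all 6 mice, and Treh was lowest in control 1 and Sis in control 3. Of 9 measured genes for sugar transport and fructose metabolism 3 lay in the top 5%. Fructokinase, Khk, read 2515.8, 3641.9 and 5388.0 (3889.6 ± 1058.9), highest in control 4. The glucose carrier of the brush border, Slc5a1, read 2007.6, 2671.7 and 2994.8 (2607.6 ± 361.2), with all 6 mice above 1000. In contrast, the fructose carrier Slc2a5 lay at 8.0 ± 14.0, with 1 mouse above the limit, and the sugar sensor family member Slc5a4b at 20.8 ± 12.4, with 2 mice above it.

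Protein digestion at the brush border was led by Anpep, aminopeptidase N, which read 6419.7, 11219.2 and 12361.5 (10538.5 ± 2163.4), and by Dpp4, which removes dipeptides ending in proline, with 4579.1, 5512.3 and 6154.5 (5487.1 ± 611.4). Both were lowest in control 1. Of 15 measured peptidases these 2 lay in the top 5% and Enpep, aminopeptidase A, alone was under the limit, at -4.8 ± 5.5. The meprin subunit Mep1b had a mean of 2151.4 ± 286.5. Among 12 measured carriers of peptides and amino acids 3 lay in the top 5%, namely Slc7a9 (3729.9 ± 276.9) for cystine and basic amino acids, Slc7a7 (3594.5 ± 441.3), its basolateral counterpart, and Slc6a19 (3053.7 ± 216.5) for neutral amino acids. Slc6a19 stands just inside the top 5%, at rank 903, and leaving out control 4 puts 2 of the 12 there. The peptide carrier Slc15a1, named after its values had been seen, had a mean of 168.3 ± 47.7. Slc6a20a, a carrier of proline, lay at 3.4 ± 7.9 and the broad carrier Slc6a14 at -5.6 ± 4.3.

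Sterol and bile acid handling held both high rows and rows at or under the limit. Of 13 measured genes 6 lay in the top 5% and 4 at or under the limit. Abcg5 and Abcg8, which form the pump that returns sterols to the lumen, read 10210.5, 13255.5 and 14948.7 (12952.7 ± 1810.7) and 3613.9, 4487.4 and 6034.6 (4681.2 ± 961.4). Slc51a and Slc51b, the subunits of the basolateral bile acid exporter, read 8022.9, 8570.2 and 9254.2 (8563.0 ± 498.5) and 3608.5, 4810.7 and 6010.4 (4797.9 ± 827.6). Partners did not share an order of mice, as Abcg5 was highest in control 6 and Abcg8 in control 3, and Slc51a was highest in control 2, where Slc51b was lowest. The apical bile acid carrier of the ileum, Slc10a2, lay at -11.6 ± 7.0, the bile acid responsive hormone Fgf15 at 24.5 ± 4.7, the nuclear receptor Nr0b2 at -5.5 ± 4.1 and the sterol exporter Abca1 at -8.8 ± 2.0. Slc10a2 and Fgf15 are known mainly from the distal small intestine, and the segment was labelled proximal.

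Metal and vitamin genes held 3 of the 21 highest rows. Mt1 read 26481.0, 32346.1 and 38064.2 (32383.3 ± 3808.1), highest in control 2. Fth1 read 27825.1, 29210.5 and 30718.8 (29301.2 ± 1089.1). The iron exporter ferroportin, Slc40a1, read 22436.6, 24011.5 and 25555.0 (23849.4 ± 1177.7), so every mouse lay above 10000 for all 3. The zinc importer Slc39a4 followed at 2937.9 ± 328.0. Of 15 measured metal genes 3 lay in the top 5% and 4 at or under the limit, which were the ferritin light chain Ftl1 (-7.9 ± 2.2) and 3 genes of active calcium absorption, the channel Trpv6 (25.5 ± 8.9) and the calcium-binding proteins Calb1 (-5.4 ± 7.5) and S100g (0.4 ± 8.9). All 6 mice were under the limit for the ferritin light chain row, which bounds only what its probe saw. For vitamins, Rbp2 read 11505.8, 14045.7 and 15351.4 (13853.3 ± 1363.3), the folate carrier Slc46a1 had a mean of 2495.8 ± 581.4 and the biotin and pantothenate carrier Slc5a6 one of 1849.2 ± 197.0. Bco1, which cleaves beta-carotene (-1.8 ± 5.4), the vitamin C carrier Slc23a1 (-2.8 ± 4.3), the plasma retinol carrier Rbp4 (5.5 ± 5.8) and the retinol dehydrogenase Dhrs9 (25.9 ± 12.9) were the 4 of 13 measured vitamin genes at or under the limit.

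Mitochondrial energy genes held many top ranks. Of 17 measured respiratory chain genes 12 lay in the top 5% and none at or under the limit, and all 6 mice were above it in all 17. Atp5b read 26481.0, 30773.8 and 32434.1 (29760.4 ± 2398.4), and the cytochrome oxidase subunits Cox5b, Cox4i1 and Cox6b1 had means of 17590.1 ± 1023.4, 16771.9 ± 1260.8 and 16611.0 ± 895.0. The adenine nucleotide carrier Slc25a5 read 19208.8, 20760.4 and 21037.3 (20495.8 ± 709.0). Ckb, brain-type creatine kinase, read 15126.2, 20585.1 and 26004.3 (20535.3 ± 3553.9), lowest in control 1.

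Several pathways that are best known from liver were among the high rows. Of 19 measured genes of ketogenesis and fatty acid oxidation 9 lay in the top 5%, among them Acadm (10211.9 ± 1356.2), which oxidises medium-chain fatty acids of the kind milk carries, Acot1 (8688.9 ± 747.2) and Hadhb (6307.9 ± 1091.9). Of the 2 at or under the limit, Cpt1a, the carnitine transferase that admits long-chain fatty acids to mitochondria, lay at 3.1 ± 5.3, whereas Cpt2, its inner membrane partner, had a mean of 5669.0 ± 388.2 and was named after its values had been seen.

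The gut of newborn mammals makes citrulline and arginine. The list for citrulline, arginine and the urea cycle, which also holds arginases and genes of proline and polyamine metabolism, had 5 of 12 measured genes in the top 5%. These 5 included Odc1, which makes polyamines and was named after its values had been seen, at 5372.0 ± 1209.2. Oat, which turns ornithine and glutamate semialdehyde into each other, read 17379.4, 22085.8 and 24466.7 (21648.1 ± 2639.6). Aldh18a1, the entry step from glutamate, read 6741.8, 7745.0 and 9310.8 (7812.4 ± 984.5), and Ass1, the step from citrulline towards arginine, 5581.1, 8134.6 and 9103.8 (7810.5 ± 1251.6), both lowest in control 4. Cps1, which makes carbamoyl phosphate, read 6445.8, 6919.8 and 7723.2 (6908.0 ± 467.4). Otc, which joins it to ornithine, lay at 24.3 ± 7.4 with 2 mice above the limit, and Pycr1, which makes proline, at -9.5 ± 3.3. Gluconeogenesis showed the same mixture in 6 measured genes. The bisphosphatases Fbp2 and Fbp1 had means of 7858.2 ± 319.4 and 7062.3 ± 1249.5 and the glucose-6-phosphatase G6pc 3832.0 ± 1192.1, highest in control 3, while Pck1, the cytosolic carboxykinase, had 190.8 ± 52.6. Pcx, pyruvate carboxylase, lay at 16.7 ± 8.5 and the mitochondrial carboxykinase Pck2 at -7.9 ± 2.7.

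Salt, water and barrier genes included some high rows. Guca2b, uroguanylin, a peptide that drives chloride and water secretion, read 18302.3, 20017.6 and 20738.1 (19860.2 ± 901.4), and its relative Guca2a had a mean of 2775.8 ± 460.9. The sodium pump subunit Atp1b1 had a mean of 8057.1 ± 1691.3. Of 17 measured genes for chloride, bicarbonate and water 3 lay in the top 5%, and the exchanger Slc26a3 (-6.7 ± 7.1), the cotransporter Slc4a4 (20.2 ± 10.3) and the carbonic anhydrase Car4 (-7.0 ± 6.7) lay at or under the limit. Of 17 measured junction genes 3 lay in the top 5%, led by the adherens junction protein Ctnna1 (14812.4 ± 723.4), the cation-permeable claudin Cldn2 (9202.9, 10316.0 and 12361.5, mean 10474.4 ± 1092.3) and Cldn4 (4375.0 ± 979.4). E-cadherin, Cdh1, had a mean of 2152.2 ± 256.4, and Jup, plakoglobin, alone was under the limit, at 25.7 ± 5.4.

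**Figure D3:**
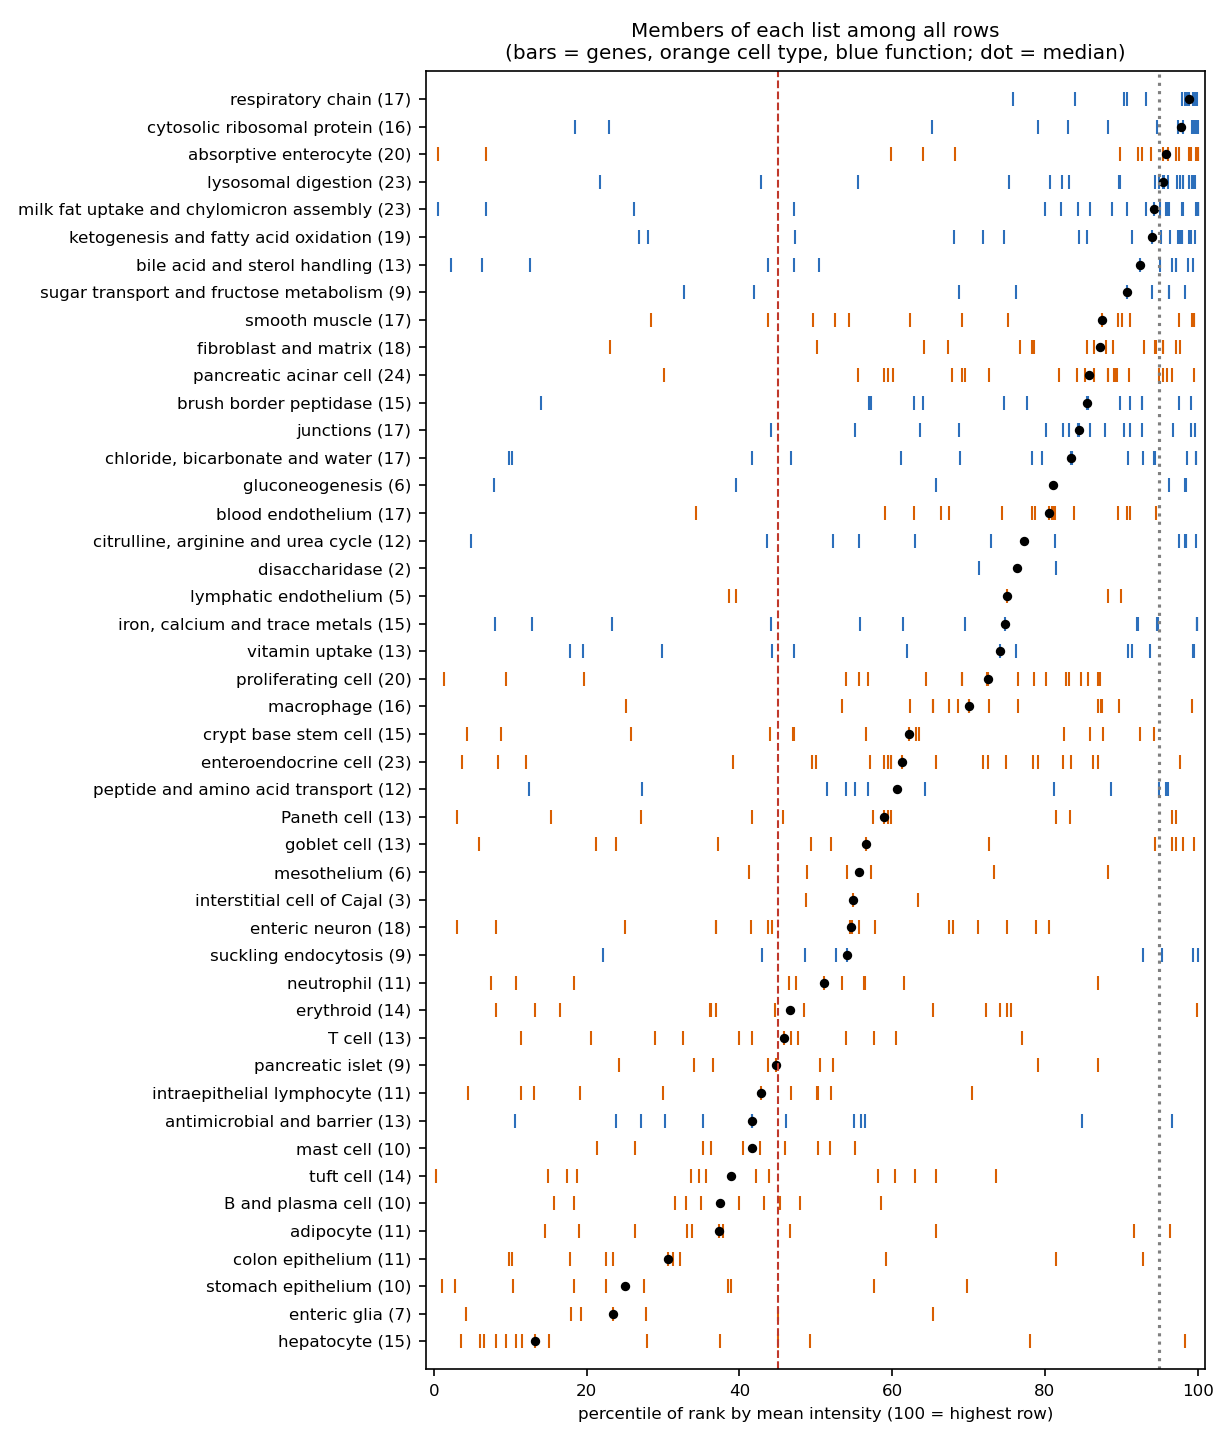
Percentile of rank by mean intensity (horizontal axis, 100 = highest row) of each measured gene (bars, orange for cell type lists and blue for function lists) of 46 lists, ordered by their medians (black dots), with the number of measured genes in brackets. The red dashed line marks the 45.0% of rows at or under the noise limit and the grey dotted line the top 5%. Respiratory chain, ribosomal, enterocyte, lysosomal and milk fat lists have the highest medians, and hepatocyte, glia, stomach and colon lists the lowest.

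Goblet cells, which secrete mucus, were represented by 4 of 13 measured markers in the top 5%. Zg16, a lectin-like protein of mucus granules that acinar cells also make, read 3215.7, 16206.0 and 23092.1 (14114.4 ± 7912.7), lowest in control 2 and highest in control 5. Clca1, a secreted mucus-processing protein, read 4017.6, 6531.2 and 8505.5 (6406.2 ± 1580.0). These 2 genes put the 6 mice in the same order. Spink4 read 3682.8, 4290.3 and 5908.7 (4620.1 ± 932.4) and the trefoil peptide Tff3 3165.8, 4040.9 and 6346.3 (4246.1 ± 1099.1), both highest in control 1. At or under the limit were Agr2 (13.3 ± 9.4), the fate-setting factor Atoh1 (-9.0 ± 2.2), Retnlb (0.9 ± 8.3) and the sialyltransferase St6galnac1 (-0.8 ± 9.6). The mucin Muc2 was not analysed here.

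Paneth cells, the antimicrobial cells of crypt bases, had 2 of 13 measured markers in the top 5% and 4 at or under the limit. Apart from Spink4, which goblet cells share, the high row was the one named LYZ, an older synonym of the Paneth lysozyme Lyz1, at 2853.4, 3794.6 and 5805.4 (4101.2 ± 1107.9). A separate row named LYZ1 read 75.2, 119.3 and 237.1 (129.9 ± 56.8), so the 2 rows of this gene disagree, and the row LYZ ordered the mice as the row of the macrophage lysozyme Lyz2 did. Which transcript it reads was not tested. Ang4, an antimicrobial angiogenin, read 336.2, 540.3 and 1182.2 (687.4 ± 365.5), highest in controls 1 and 6. The metalloprotease Mmp7 that processes defensins (-4.1 ± 3.2), Reg3g (3.3 ± 7.9), Pla2g2a (-10.9 ± 1.0) and Habp2 (20.1 ± 5.1) lay at or under the limit. Across the list control 1 had the highest score, 0.66, against -0.35 to 0.12 in the other 5 mice, and was the highest mouse in 5 of the 6 rows in which every mouse passed the limit, compared with 24.7% of all 9023 such rows.

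Enteroendocrine cells, scattered hormone makers, had 1 of 23 measured markers (4.3%) in the top 5%, near the 5.01% of all matched genes. The marker in question was secretin, Sct, which read 4422.0, 5358.6 and 6936.0 (5602.5 ± 899.2). Somatostatin, Sst, read 859.2, 1045.3 and 1595.4 (1145.7 ± 297.0), cholecystokinin, Cck, 805.4, 982.2 and 1661.1 (1083.7 ± 314.7), and ghrelin, Ghrl, 686.2, 819.5 and 913.3 (805.9 ± 95.2). For all 4 hormones the 2 highest mice were controls 1 and 2, and control 2 was highest in 9 of the 18 rows in which every mouse passed the limit. The developmental factors Neurod1 (-7.6 ± 5.0), Pax4 (16.1 ± 7.2) and Pax6 (-5.8 ± 6.5) and the hormone-processing protease Pcsk1 (-10.4 ± 5.9) lay at or under it. Tuft cells, rare chemosensory cells, had no marker in the top 5% and 9 of 14 at or under the limit, including their channel Trpm5 (8.9 ± 3.3), their defining factor Pou2f3 (-15.6 ± 4.0), Gfi1b (1.8 to 18.8) and the cytokine Il25 (-3.0 ± 4.9). The highest tuft list members, Hpgds (369.3 ± 112.3), Plcg2 (174.1 to 206.5), Alox5ap (150.1 ± 42.9) and Ptgs1 (118.0 ± 19.4), are also made by immune and stromal cells.

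Crypt stem and dividing cells were measured in the middle ranks. None of 15 stem cell genes lay in the top 5%. The chloride cotransporter Slc12a2, which crypts share, had a mean of 2711.4 ± 323.0, Olfm4 read 1741.4, 1948.0 and 2554.5 (2069.7 ± 360.2), the ephrin receptor Ephb2 1003.9, 1227.2 and 1525.1 (1237.7 ± 168.8), and Lrig1 had 1031.5 ± 147.4. Controls 1 and 2 were the highest mice for Slc12a2 and Olfm4 but the lowest for Ephb2. The stem cell receptor Lgr5, named after its values had been seen, had a mean of 157.7 ± 29.0 and lay between 128.5 and 208.1. Ascl2 (25.2 ± 12.9), Znrf3 (-7.5 ± 6.6), Ephb3 (2.2 ± 8.5) and Msi1 (-10.0 ± 2.5) lay at or under the limit. Of 20 measured proliferation genes 17 were above the limit in every mouse and none lay in the top 5%. The replication helicase subunits Mcm5, Mcm2 and Mcm4 had means of 1167.8 ± 160.8, 1001.0 ± 78.6 and 919.5 ± 103.6 and the topoisomerase Top2a 1132.5 ± 223.4. The mitotic genes Ccnb2 (-12.8 ± 5.3), Bub1 (-7.1 ± 5.7) and Ccna2 (-1.8 ± 6.9) were without signal. Control 2 was the highest mouse in 9 of the 17 rows and its list score was 0.28, against -0.18 in control 3.

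The muscle coat held high rows. Of 17 measured smooth muscle genes 5 lay in the top 5%. The myosin kinase Mylk read 9671.2, 14770.9 and 16481.2 (14142.9 ± 2346.9) and tropomyosin, Tpm1, 11882.0, 13591.5 and 16687.8 (13894.5 ± 1697.0). The smooth muscle actins Acta2 and Actg2 read 10682.3, 13684.2 and 15568.6 (13249.8 ± 1686.8) and 8747.3, 12099.1 and 13558.9 (11747.7 ± 1810.1). Control 1 was lowest for Mylk, Acta2 and Actg2. The calcium pump regulator Pln (24.8 ± 8.2) and Synpo2 (4.4 ± 6.9) lay at or under the limit.

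In connective tissue 4 of 18 measured fibroblast and matrix genes lay in the top 5% and Postn alone under the limit, at 0.3 ± 5.8. Decorin, Dcn, read 4984.5, 5448.1 and 7227.8 (5659.4 ± 799.4), Sparc 3054.6, 4886.5 and 5378.5 (4660.3 ± 857.8), Col5a1 2480.1, 3506.4 and 3841.9 (3403.4 ± 492.4) and Col6a1 2324.5, 3532.4 and 3871.7 (3370.0 ± 561.6). Control 1 was lowest for the last 3 and highest for Dcn. Among blood vessel markers none of 17 lay in the top 5%, or 1 without control 1, and the diaphragm protein Plvap read 1287.7, 2954.2 and 3848.3 (2831.2 ± 917.4), Esam 1244.1, 1897.0 and 2186.2 (1787.5 ± 367.7), Emcn 1553.6, 1653.5 and 1914.5 (1703.7 ± 160.7) and Egfl7 1302.6, 1480.5 and 1715.9 (1505.5 ± 135.8). The receptor Kdr, at 9.6 ± 5.4, alone lay under the limit. Control 1 was the lowest mouse in 13 of 17 matrix rows, 10 of 16 vessel rows and 9 of 15 muscle rows with every mouse above the limit, compared with 25.5% of all 9023 such rows. Its list scores were -0.42 for matrix, -0.45 for vessels and -0.29 for muscle, and the other 5 mice lay between -0.06 and 0.19 in all 3 lists. Low scores of control 1 were not confined to these lists. It had -0.31 for peptide and amino acid transport, where the other 5 mice lay between -0.03 and 0.15, and -0.21 for brush border peptidases. Lymphatic vessels were read through Reln (1544.1 ± 213.8), Pdpn (1325.6 ± 258.1) and Lyve1 (417.2 ± 99.8), while their defining factor Prox1 (15.5 ± 5.4) and receptor Flt4 (16.7 ± 6.6) were under the limit.

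Of 18 enteric neuron genes none lay in the top 5% and 8 (44.4%) were at or under the limit, near the 44.5% of all matched genes, among them Elavl3 (24.4 ± 8.0), Elavl4 (25.8 ± 4.8), Tubb3 (12.7 to 40.2, median 15.8) and Snap25 (-7.7 ± 6.4). The neuropeptides galanin, Gal (641.2 ± 59.8), and Vip (416.7 ± 79.8), the growth cone protein Stmn2 (562.6 ± 66.6) and the receptor Ret (304.1 ± 74.7) were above it in all 6 mice. Of 7 measured glial genes 5 lay at or under the limit, including Gfap (0.5 ± 2.7), Foxd3 (-2.7 ± 9.2) and Cdh19 (3.8 ± 3.4), and 1 was above it in every mouse. S100b, at 28.0 ± 11.1, lay just above the limit. The pacemaker cells of Cajal were seen through Gpr20 (156.4 ± 35.4), Ano1 (57.5 to 86.2) and Etv1 (37.7 ± 9.7), and the mesothelium that covers the gut through Krt19 (1311.1 ± 241.2), Upk3b (361.0 ± 46.9), Upk1b (87.4 ± 15.5) and Msln (64.7 ± 21.8), of which Krt19 is also made by the epithelium. Lrrn4, at 19.5 ± 9.8, was the 1 mesothelial gene under the limit.

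Blood was visible in all 6 mice. Alpha-globin, Hba-a1, read 19790.7, 23319.9 and 30038.3 (23508.0 ± 3797.8) at rank 23. The beta-globin rows Hbb-b2 and Hbb-b1 had means of 433.1 ± 219.2 and 333.1 ± 294.9, and Hbb-b1 ran from 57.3 to 861.2. The haem synthesis gene Alas2 had a mean of 416.5 ± 143.1 and the mitochondrial iron carrier Slc25a37 one of 381.3 ± 43.1. The embryonic globins Hba-x (-3.5 ± 10.5) and Hbb-y (-5.2 ± 3.3), Epb42 (-7.8 ± 2.8) and Bpgm (12.9 ± 10.1) were at or under the limit. In all, 7 of 14 measured erythroid genes were so, a share near the 44.5% of all matched genes.

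Macrophage genes had signal in every mouse with 1 exception. Of 16 measured markers 15 were above the limit in every mouse. Apart from Lgmn, which the epithelial lysosome may share, the highest were the lysozyme Lyz2 (1083.2, 1446.7 and 2261.1, mean 1526.0 ± 412.1), the complement subunit C1qb (1079.3, 1143.2 and 1584.2, mean 1218.5 ± 186.0) and the growth factor receptor Csf1r (921.9, 1234.8 and 1460.2, mean 1192.3 ± 211.3). These 3 genes did not share an order of mice, and only the haemoglobin receptor Cd163 was under the limit, at 1.8 ± 2.6. Of the neutrophil genes, means were 1144.2 ± 264.1 for Mmp9, 130.5 ± 41.8 for S100a8, 81.6 ± 13.6 for Lcn2 and 80.3 ± 38.3 for Retnlg, and Mpo (-2.5 ± 3.1), Cxcr2 (-8.1 ± 1.0) and Mmp8 (-6.5 ± 4.1) lay under the limit. Of 10 mast cell genes 6 (60.0%) were at or under it, against 44.5% of all matched genes. Among them were Cma1 (22.3 ± 5.7), Mcpt1 (18.2 ± 13.8), Mcpt2 (2.7 ± 4.0) and Tpsb2 (-5.1 to 26.6). The highest mast cell genes were the histamine enzyme Hdc (72.3 ± 16.4) and the protease Cpa3 (51.9 ± 7.5).

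Lymphocyte genes were in part above the limit and in part under it. Among T cell markers Thy1, which stromal and nerve cells also make, had a mean of 488.4 ± 68.8. Lck read 67.1, 116.3 and 182.6 (119.9 ± 39.0), Cd3g 41.5, 77.2 and 201.2 (91.1 ± 58.4) and Cd3d 23.1, 52.1 and 134.9 (64.6 ± 42.8). All 3 were highest in control 1, followed by control 6, and lowest in control 5. Cd4 (17.2 ± 9.2), Cd8a (-6.1 ± 1.7), Cd2 (4.7 ± 7.0) and Zap70 (20.3 ± 5.3) were under the limit, and 6 of 13 measured T cell genes (46.2%, near the 44.5% of all matched genes) were so in all. Of 11 intraepithelial lymphocyte genes 6 (54.5%) were also at or under it, against the same 44.5%. The granzyme Gzmb lay at -9.8 ± 5.3, Cd244a at -5.2 ± 3.0 and Nkg7 at 22.6 ± 9.8, while perforin, Prf1, had a mean of 283.3 ± 91.8 and the epithelial-homing integrin Itgae 52.3 ± 8.5. Of 10 measured B and plasma cell genes 7 were at or under the limit, among them Ms4a1 (17.5 ± 13.8), Pax5 (-2.5 ± 4.3), Blk (8.2 ± 15.1) and Cd22 (10.4 ± 5.1). Cd79b, a part of the B cell receptor, read 41.3, 73.1 and 203.0 (98.9 ± 65.6), again highest in control 1 and next in control 6. Control 1 had the highest score of both the T cell list, 0.40, and the B cell list, 0.46.

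Genes of neighbouring organs were mostly at or under the limit. Of 15 measured liver genes 12 lay at or under the limit, with albumin, Alb, at -8.9 ± 2.2, Ahsg at -5.1 ± 5.6, Fgb at -7.2 ± 5.6 and Fga at 3.8 ± 2.5, and the high member was Cps1, which the gut shares. Of 10 stomach genes 8 were at or under it, including Gkn1 (15.7 ± 2.3), Gkn2 (-6.6 ± 3.9), Muc5ac (-2.5 ± 6.3) and Muc6 (-13.2 ± 3.0). The trefoil peptide Tff2, which stomach, duodenal glands and pancreas are known to make, read 1346.9 in control 4, 164.0 in control 5 and 17.6 to 26.2 in the other 4 mice. Of 11 colon genes 8 were at or under the limit, among them Hoxb13 (7.4 ± 4.3) and Hoxd13 (0.0 ± 7.4). The water channel Aqp8 (2182.6 ± 398.9) and Ceacam1 (105.8 ± 16.5), which the small intestine also makes, were above it. Of 11 fat cell genes 7 were at or under the limit, with Adipoq at 13.5 ± 5.0, Lep at 14.3 ± 10.2, Plin1 at -2.1 ± 2.4 and Cfd at 8.3 ± 7.7, and the lipid droplet protein Cidec (3915.4 ± 527.8) and the lipase Lpl (1914.8 ± 750.8) were high.

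Pancreatic acinar transcripts differed between the mice more than any other list. Control 4 was the highest mouse in 23 of 24 measured acinar rows, and control 5 was next in 20 of 24. The lipase-related Pnliprp1 read 14382.4 in control 4, 4402.2 in control 5 and between 152.7 and 335.2 in the other 4. Reg1 read 17025.0 in control 4, 3838.1 in control 5 and between 1063.2 and 1359.2 in the other 4, and the colipase Clps 14384.2, 2854.5 and between 789.4 and 1675.1. The elastase Cela2a, named after its values had been seen, read 16839.6 in control 4, 1366.1 in control 5 and at most 16.3 elsewhere. Those other 4 mice thus had Pnliprp1, Reg1 and Clps above the limit but not Cela2a. With all 6 mice 4 acinar genes lay in the top 5% and 1, the lipase Pnlip (5.6 ± 9.4), at or under the limit, and without control 4 these counts were 1 and 7. Of 9 islet genes 5 (55.6%) were at or under the limit, against 44.5% of all matched genes. They included Iapp (27.2 ± 13.9), Ppy (12.4 ± 19.6), Slc30a8 (1.2 ± 3.3) and G6pc2 (9.3 ± 4.3). Insulin, Ins2, read 337.1 in control 4 and at most 1.5 elsewhere, and Ins1 read 146.9 in control 4 and between 22.0 and 33.2 elsewhere. Whether pancreas was cut along with the gut was not tested.

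**Figure D4:**
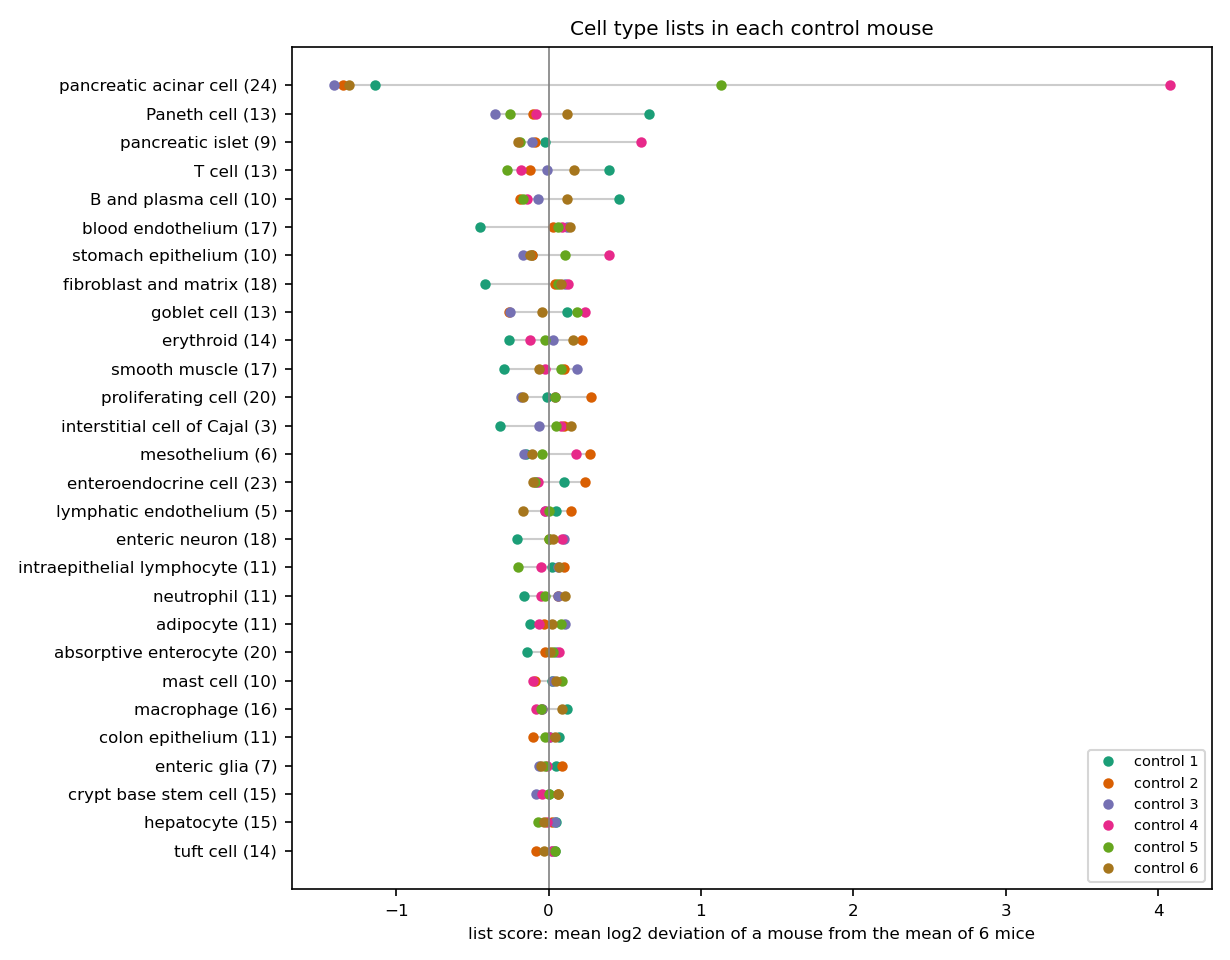
List score of each control mouse (coloured points; horizontal axis, mean log2 deviation from the mean of the 6 mice over the list, values under 27.8 set to 27.8) for the 28 cell type lists, ordered by the range between mice, with the number of measured genes in brackets. The acinar list spans -1.41 to 4.08, control 1 is lowest in blood endothelium (-0.45) and fibroblast and matrix (-0.42), and highest in the Paneth list (0.66).

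Genes best known from the adult intestine were gathered in 4 lists of 83 genes, of which 70 were measured. Of these 32 (45.7%) had a mean at or under 27.8, which is near the 44.5% of all matched genes and so marks nothing particular about them. All 6 mice were at or under the limit in 27 genes and above it in 29, 14 genes were mixed, and 5 lay in the top 5%. Of all list genes, those just under the limit were Cyp2c55 (27.2), Iapp (27.2) and Fgg (27.7), and among those just above it were S100b (28.0) and Defa21 (29.3).

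Of 16 measured adult enterocyte enzymes and transporters 8 were at or under the limit. Beside Slc10a2, Fgf15, Slc2a5, Slc5a4b, Enpep and Slc6a14, given above, these were the adult intestinal phosphatase Akp3 at -6.4, 6.1 and 16.7 (6.1 ± 7.8) and the fucosyltransferase Fut2, which decorates the weaned epithelium for resident bacteria, at -3.6, 4.7 and 20.9 (5.7 ± 8.2). Neither had a mouse above the limit. Arginase 2, Arg2, which in mice rises at weaning, read 11.7, 54.2 and 187.1 (75.8 ± 69.4) with 4 mice above it. Fabp6, the ileal bile acid binding protein, read 36.1, 44.0 and 59.5 (45.3 ± 8.5), Ggt1 60.5, 88.7 and 99.7 (85.9 ± 13.6) and the guanine deaminase Gda 574.3, 765.5 and 900.7 (740.8 ± 130.1), each above the limit in all 6 mice. Khk was the member in the top 5%.

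Of 20 measured drug-metabolising genes 10 were at or under the limit. They included the cytochromes Cyp2b10 (4.7 ± 6.2), Cyp2c29 (-9.0 ± 2.9), Cyp2c55 (27.2 ± 15.7), Cyp1a1 (-8.6 ± 4.3) and Cyp2j6 (-5.8 ± 7.3). The sulfotransferase Sult1b1 (4.5 ± 5.2), the glutathione transferase Gstm3 (-3.8 ± 6.3), the esterases Ces1e (14.1 ± 5.5) and Ces2a (-2.7 ± 5.7) and the glucuronosyltransferase Ugt2b5 (-16.0 ± 3.1) completed them. In contrast Cyp3a13 read 3326.6, 3688.5 and 3976.2 (3696.1 ± 225.7), and its relatives Cyp3a25 and Cyp3a11 had means of 548.1 ± 122.1 and 48.0 ± 39.5. Cyp3a11 was above the limit in 3 mice, at 103.9 in the highest, control 4. Cyp2d26 (1663.8 ± 438.4) and Cyp2c65 (674.6 ± 91.7) were high in every mouse, and Gsta1 read 88.4, 145.6 and 458.6 (229.4 ± 158.8), highest in controls 4 and 5, the same mice that carried acinar transcripts. Cyp4f14 (166.3 ± 54.9), Gstm1 (186.2 ± 48.5), Ugt1a6a (115.5 ± 24.9) and Ugt2b34 (69.9 ± 34.3) were above the limit in all 6 mice. Cytochrome genes of 1 subfamily are similar in sequence, and the files do not say which transcripts a probe distinguishes.

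Of 17 measured genes of the adult Paneth cell and of defence 7 (41.2%, against 44.5% of all matched genes) were at or under the limit. These 7 were Mmp7, Reg3g, Pla2g2a, Retnlb, the oxidase Duox2 (-6.5 ± 4.3), the nitric oxide synthase Nos2 (10.6 ± 9.5) and the acute phase protein Saa1 (20.4 ± 23.7). Alpha-defensins, the peptides of Paneth granules, varied between mice, with Defa26 at 44.8, 78.6 and 256.5 (108.2 ± 76.4) and Defa5 at 27.4, 67.0 and 321.5 (102.4 ± 109.0), both highest in control 1. Defensin rows with no single matched gene, named after their values had been seen, were DEFCR6 at 689.6, 1237.3 and 3178.5 (1576.8 ± 975.6), DEFCR20 at 781.8, 982.8 and 1711.2 (1094.4 ± 336.7), DEFA1 at 95.8, 128.1 and 613.9 (244.6 ± 210.3) and DEFCR4 at -13.9, -8.4 and 340.4 (62.3 ± 140.6). All 4 were highest in control 1 as well. Itln1 read 41.5, 88.8 and 264.0 (112.3 ± 82.2), also highest in control 1, and Mptx1 26.3, 101.4 and 125.6 (89.6 ± 38.3). Reg3b (77.7 ± 36.2) and Reg3a (71.0 ± 22.6) lay above the limit in 5 and 6 mice. Pigr, the receptor that exports immunoglobulin A, read 688.5, 980.5 and 1127.7 (939.5 ± 179.7). In the list of antimicrobial and barrier genes as a whole 7 of 13 measured genes (53.8%) were at or under the limit, against 44.5% of all matched genes. Defensin rows share near-identical sequences and are uncertain one by one.

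Of 17 measured adult immunity genes 7 (41.2%, against 44.5% of all matched genes) were at or under the limit. They were Jchain, which joins immunoglobulin A (6.9 ± 4.4), the plasma cell receptor Tnfrsf17 (-3.9 ± 3.3), Cd8a, Gzmb, Il22ra2 (15.1 ± 5.8), the dendritic lectin Cd209e (-12.2 ± 5.8) and Ccr9 (-14.3 ± 5.7), the receptor by which lymphocytes home to the small intestine. Its ligand Ccl25, made by the epithelium, read 3293.0, 4217.2 and 4997.3 (4215.6 ± 610.9) and lay in the top 5%. Cd74, the invariant chain of antigen presentation, read 2498.1, 3308.9 and 4439.7 (3368.5 ± 647.4), and the class II genes H2-Ab1 (1692.0 ± 491.8), H2-Eb1 (1343.1 ± 121.5) and H2-Aa (651.1 ± 166.4) and their regulator Ciita (57.9 to 147.6) were above the limit in all 6 mice. Mzb1 read -1.2, 32.7 and 93.5 (35.4 ± 32.1), highest in control 1, Cd3e 23.3, 30.1 and 57.8 (34.4 ± 12.5), and Ccl5 14.6, 43.1 and 73.6 (44.0 ± 22.1).

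**Figure D5:**
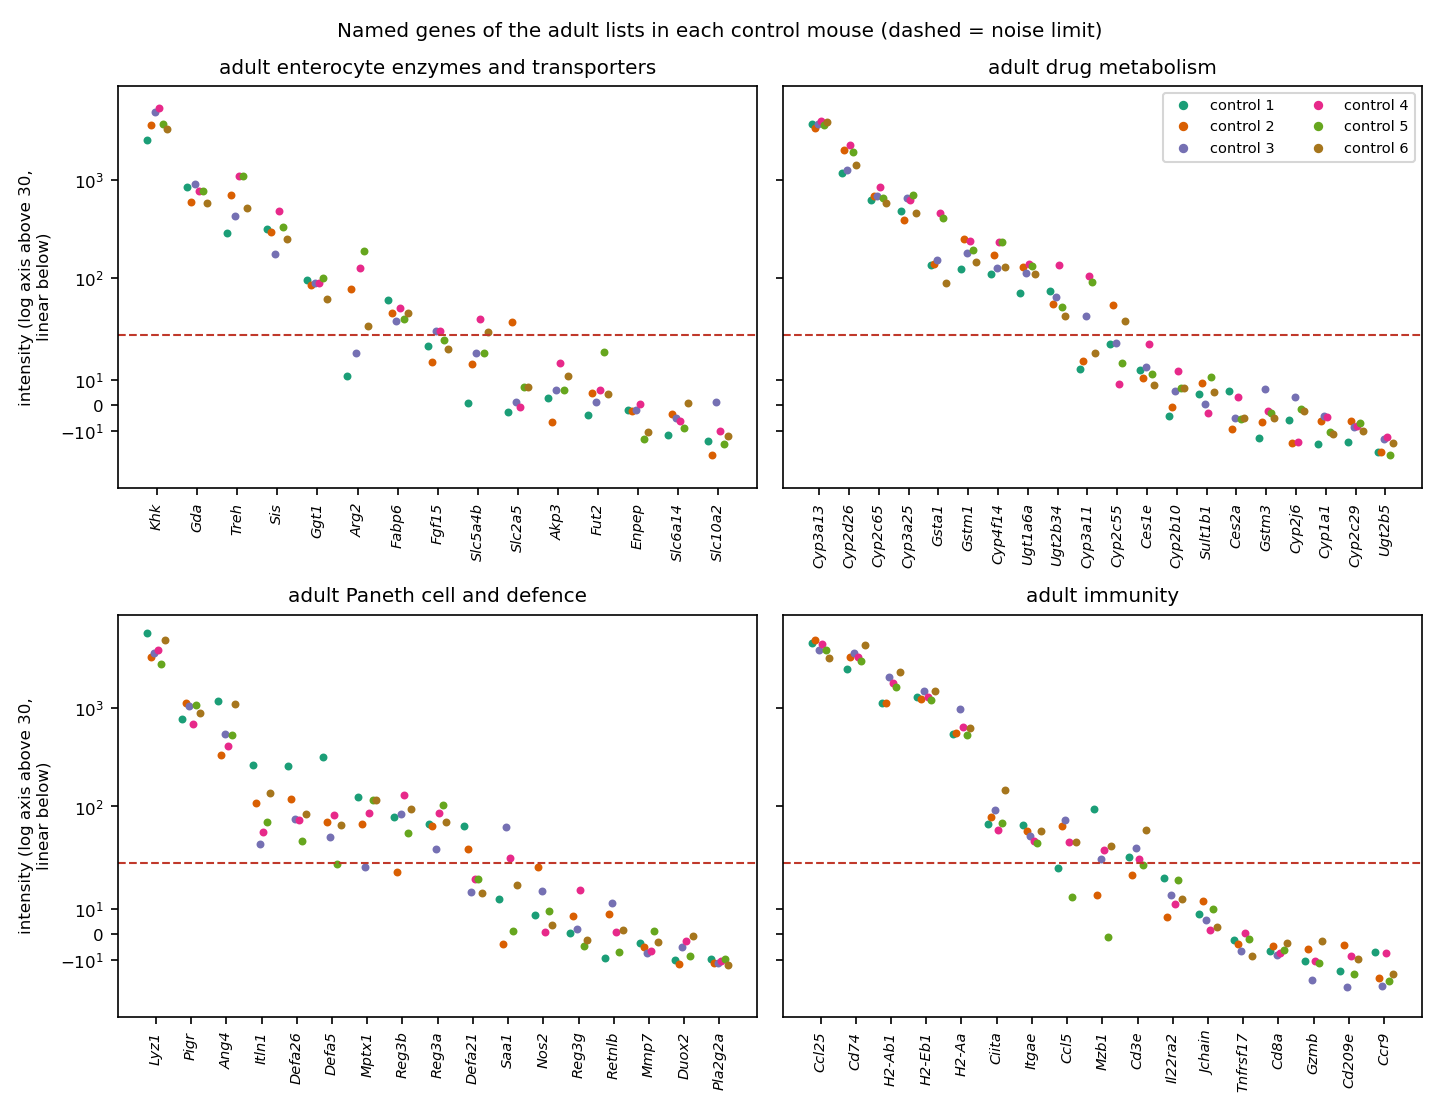
Intensity (vertical axis, logarithmic above 30 and linear below) of the measured genes of the 4 adult lists that the text names in each of the 6 control mice (coloured points), ordered by rank within each list, with the noise limit of 27.8 dashed. In each list some genes lie above the limit in every mouse and others under it in every mouse, and Defa5, Itln1 and Mzb1 are highest in control 1.

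Most rows varied little between the mice. Over the 9023 rows with every mouse above the limit the median SD of log2 intensity was 0.21, and 410 rows (4.54%) reached 0.5 and 30 reached 1. Of the 20 rows with the largest SD, 6 belonged to the acinar list, among them Pnliprp1 (SD 2.82), Ctrl (2.76) and Ctrb1 (2.02), which code for a lipase relative and for chymotrypsins. Ctrl read 4402.2 in control 4, 617.0 in control 5 and 35.5 to 64.4 elsewhere. Rnase1 (SD 1.64), which the acinar list did not hold, read 9131.2 in control 4, 1435.5 in control 5 and 459.9 to 819.2 elsewhere, and so followed the same mice. Other rows split the mice differently. The intelectin row ITLNB (SD 1.76) read 395.7 in control 6, 722.4 in control 1 and between 4590.1 and 6317.5 in the other 4. Ccng2, a cyclin-like gene, read 606.3 and 665.3 in controls 1 and 2 and 47.0 to 94.8 elsewhere. Paip1, a translation factor, read 255.2 and 285.2 in controls 3 and 4 and 31.2 to 38.6 elsewhere. Cap1, an actin regulator outside these 20 rows that was named after its values had been seen, read 1729.5 and 1858.5 in controls 2 and 6 and 263.2 to 535.7 elsewhere. In these 3 genes a high and a low set of mice were separate, and the mice in the high set differed from gene to gene. Without control 4 the count of rows with an SD of at least 0.5 was 476, each SD then resting on 5 mice.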

How the data were processed

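RNA of 6 control mice was read on Illumina 1-colour arrays. The deposited values are linear intensities that the authors background-subtracted and normalized, and their highest value is shared by all 6 columns. The submitters' processing notes name GenomeStudio and Partek, with no versions given there. A second deposited table has 24 columns that no label ties to a sample, and it was not used here, so detection p-values were not used either.

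Rows were ranked by the mean over the 6 mice. The noise limit was the size of the most negative value, 27.8. Rows were matched to RefSeq genes of GRCm38.p6, 14092 by symbol and 3043 by synonym, while 75 were ambiguous and 880 had no match. Of the 16950 genes with a row, 183 had several rows, and the brightest was used. Counts, shares and SDs describe the mice, and no groups were tested against each other, since all are of 1 group. Dixon's limit for 6 values was applied to list scores and to the rows named in the text, to find a mouse far from the others. Depth has no meaning for arrays, and the number of mice limits the precision. A list score is the mean over a list's genes of a mouse's log2 deviation from the mean of the 6 mice, after values under the limit were set to it. Python 3.11.15 with numpy 2.4.6 and pandas 2.3.3 was used, and R 4.3.3 with limma 3.58.1 for the alternative with a normexp offset of 50 and quantile normalization. The scripts were tested on simulated data.

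The members and lists were chosen with earlier results of these data known. The genes named are the 40 highest rows and, for each list, the 4 highest members and up to 4 at or under the limit. The measured adult genes and the 20 rows with the largest SD of log2 intensity are named as well. Some genes that this rule covers are not reported here. Any other gene is said to be named after its values had been seen. The alternatives tried were the median over mice, a doubled limit, the limit met by every mouse, another normalization, the dimmest row of a gene, symbol matches only, the top 10% and leaving out each mouse.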

Additional observations from a re-analysis of the deposited data

Results flagged for a closer look

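In each result below the highest or the lowest mouse lay further from the nearest other mouse than Dixon's limit for 6 values allows, which chance gives in about 1 in 20 groups. This held for 31 of the 371 row values tested, which are the rows named in the text, and for 6 of the 50 list scores.

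Control 4 gave the largest share. In it Reg1 read 17025.0, Cela2a 16839.6, Clps 14384.2, Pnliprp1 14382.4, Rnase1 9131.2, Ctrb1 6942.4, Ctrl 4402.2, Tff2 1346.9, Ins2 337.1, Ins1 146.9, Ppy 51.1 and Pnlip 24.0, each the highest of the 6 mice, and the islet score was 0.61. Reg1, Cela2a, Clps, Pnliprp1, Ctrb1, Ctrl and Pnlip are of the acinar list. Ins1, Ins2 and Ppy are of the islet list and Tff2 of the stomach list. The acinar sum given at the start was highest in the same mouse. Reg1, Clps, Pnliprp1, Ctrb1, Ctrl and Rnase1 were above the limit in all 6 mice, and where their signal came from was not tested. Cyp2c65 at 847.9 and Ugt2b34 at 136.2 were highest there too, and Trpm5, at 2.3, was lowest. Pnlip and Trpm5 were under the limit in all 6 mice, so their order of mice carries no information.

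Control 1 had the lowest scores for blood endothelium (-0.45), fibroblast and matrix (-0.42), enteric neurons (-0.21) and ketogenesis and fatty acid oxidation (-0.14), and the lowest value of Mylk, 9671.2. It had the highest values of Dcn (7227.8), Tff3 (6346.3), the row DEFCR4 (340.4), Defa5 (321.5), Defa26 (256.5), the row LYZ1 (237.1), Cd3g (201.2) and Iapp (53.9). Dcn is itself a matrix gene. Of the 17 matrix rows with every mouse above the limit, control 1 was lowest in 13 and highest in 1, that of Dcn.

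Control 6 had the highest C1qb, 1584.2, and Ciita, 147.6. Control 3 had the highest H2-Aa, 977.9, and Tubb3, 40.2, the lowest Gkn1, 11.3, and the highest gluconeogenesis score, 0.24. Gkn1 was under the limit in every mouse, so its order of mice carries no information. Pcx was highest in control 5, at 33.3, and Slc2a5 in control 2, at 35.5, each the 1 mouse above the limit for its gene.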

How the results depend on the processing

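No paired analysis was possible because no groups were compared. The count of rows with an SD of log2 intensity of at least 0.5, 410 as reported, was 245 with the limit doubled and 125 after normexp and quantile normalization. The doubled limit leaves fewer rows, and the normexp offset adds a constant to every value before the log. Leaving out each mouse in turn gave 311 to 497 for that count, 31 to 34 adult genes at or under the limit, 175 to 182 list genes at or under it, 111 to 117 list genes in the top 5%, 8138 to 8152 rows at or under it, and 96 to 99 of the 100 highest rows. Of the other counts reported for all rows, all lists or the adult genes, each stayed within 1.5 times its value under every alternative that gave one. Among counts for single lists 21 values moved further and 1079 did not. Doubling the limit raised the counts at or under it to 4 in smooth muscle, 2 in fibroblast and matrix, 1 in the cells of Cajal, 2 in mesothelium, 6 in neutrophils, 10 in intraepithelial lymphocytes and 11 in adult immunity. Symbol matches alone left 2 goblet and 1 Paneth gene in the top 5%, and without control 4 the range of the acinar score between mice fell from 5.49 to 2.55, of the islet score from 0.80 to 0.17 and of the stomach score from 0.57 to 0.27. Low rows are limited by the signal over background, so the order of rows at or under the limit carries no information.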

Other observations

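Regulators of gut identity that no list above holds were also measured, in a list chosen after the values had been seen. Of 20 measured gut transcription factors 5 lay in the top 5% of rows and 3 at or under the limit. The shares of all matched genes were 5.01% and 44.5%, and the counts of a list chosen in this way partly reflect the choice. Cdx2, the caudal-type factor that sets intestinal identity, read 4378.8, 5712.5 and 7972.0 (mean 6182.6 ± 1429.0, SD, n = 6), lowest in control 1 and highest in control 2. Gata6 read 4968.4, 5931.5 and 6437.4 (5860.2 ± 560.0), Klf5 3768.2, 4291.9 and 4827.0 (4346.5 ± 387.8) and Onecut2 3275.8, 3752.1 and 4351.6 (3782.8 ± 404.5). Hnf4a, a nuclear receptor that drives enterocyte genes, read 2879.9, 3075.3 and 4238.0 (3268.9 ± 520.8), highest in control 1. Gata4, a factor of the proximal intestine, had a mean of 213.4 ± 41.8 and Pdx1, a factor of the duodenum and pancreas, 373.3 ± 134.5, both above the limit in all 6 mice. Sox2, a stomach factor, lay at 7.2 ± 2.8, Foxa2 at -5.5 ± 3.4 and Onecut3 at -2.9 ± 2.4.

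Imprinted growth genes, known for high expression in fetal and newborn tissues, were gathered in the same way. Of 11 measured genes 2 lay in the top 5% and 2 at or under the limit, against 5.01% and 44.5% of all matched genes. These counts too partly reflect the choice. Cdkn1c, an inhibitor of the cell cycle, read 12207.4, 13588.5 and 16228.4 (14026.4 ± 1710.9), at rank 92. Igf2, a growth factor, read 10824.5, 12093.6 and 13030.2 (12040.2 ± 869.7), at rank 135. The growth factor receptor adaptor Grb10 had a mean of 2428.9 ± 226.4, the RNA H19 one of 2357.6 ± 647.6 and Igf2r, which clears Igf2, one of 1789.2 ± 244.3. H19, Igf2, Grb10, Dlk1, Igf2r and Ndn were lowest in control 1, as were 25.5% of the 9023 rows with every mouse above the limit, while Cdkn1c was lowest in control 5 and Mest in control 6. Plagl1 (-2.7 ± 2.5) and Phlda2 (18.7 ± 6.8) lay at or under the limit.

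Several of the rows with the largest SD set controls 5 and 6 apart from the other 4 mice. Over the 9023 rows with every mouse above the limit, both of these mice were above the other 4 in 8.42% and below them in 7.94%. Xist read 440.6 and 505.1 in controls 5 and 6 and 2.5 to 14.7 in the other 4, and the Y-linked Ddx3y read 74.5 and 76.1 in controls 5 and 6 and 624.0 to 1202.7 elsewhere. The transcription factor Isx read 120.9 and 111.9 in those 2 mice and 714.0 to 1395.3 elsewhere, B3gnt3 57.1 and 78.1 against 334.3 to 573.3, Zfp869 142.3 and 157.2 against 568.4 to 1249.0, and Abhd1 1733.5 and 1883.0 against 275.5 to 354.7. Of 25 measured interferon-stimulated genes, a list also chosen after seeing values, controls 5 and 6 held the 2 highest values in 17. Among them Igtp read 3608.5 and 2449.9 in controls 5 and 6 and 700.5 to 1249.0 elsewhere, Serpina3f 548.0 and 350.2 against 63.1 to 106.6, Nlrc5 294.9 and 216.8 against 37.3 to 80.7 and Rsad2 5030.5 and 4396.1 against 1474.9 to 2926.2. Of 5 measured sex-linked genes, controls 5 and 6 were above the other 4 in 1 and below them in 4. The labels give no sex, and a sex difference cannot be told apart here from any other difference between these 2 sets of mice. No test was made of the differences above, since the labels do not separate these mice. Dao read -0.7 in control 5 and 837.6 to 1430.4 in the other 5 mice.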
